A study of Mus musculus with 6 samples.

Results

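Genes of the primitive endoderm and of the basement membrane were examined after a KIAA1718 shRNA was delivered to mouse embryonic stem cells of the R1 line, in comparison with R1 cells given a luciferase shRNA. The set holds 34 genes, taken by gene symbol, of the 18193 genes that the array's annotation names through a probe set with 1 symbol. Each gene was read from its brightest probe set over the 6 arrays. All 34 were on the array and 30 passed the filter on low signals, which kept 12741 genes; Afp, Ttr, Apoa1 and Ihh did not.

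RNA was measured on 6 Affymetrix Mouse Genome 430 2.0 arrays, 3 from cells with the first KIAA1718 shRNA and 3 from cells with the luciferase shRNA. In both groups the shRNA was delivered by a lentivirus and the infected cells were sorted for GFP before RNA extraction. KIAA1718 is the protein of Kdm7a, a demethylase of histone H3, and luciferase is a firefly enzyme that mouse cells lack. Each group rests on 1 shRNA sequence, so an effect of lowering KIAA1718 and other effects of that sequence cannot be told apart. No label says that the replicates are separate infections or cultures, so the p-values measure the spread between these 3 arrays, which may be technical.

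The primitive endoderm is the layer of the early embryo that forms beside the epiblast, from which embryonic stem cells derive. It is specified by GATA and SOX transcription factors under FGF signalling and gives rise to the visceral endoderm, which takes up and secretes nutrients, and to the parietal endoderm, which lays down a thick basement membrane. A basement membrane is a sheet of laminin and type IV collagen networks joined by nidogen and the proteoglycan perlecan; embryonic stem cells and fibroblasts also make several of its proteins.

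Signals below are intensities after quantile normalization, in arbitrary units, with the KIAA1718 shRNA1 arrays given as replicates 1, 2 and 3 and then the luciferase arrays in the same order. Differences are log2 values of signal plus 16, so they understate the change of dim genes. Each was tested with limma, and adjusted p-values (Benjamini-Hochberg) come from limma over all 27022 tested probe sets, with a threshold of 0.05. Correlations between arrays were 0.983 to 0.989 within groups and 0.977 to 0.985 between them. Before normalization the arrays differed in scale, with median signals of 11.1 to 13.3 for KIAA1718 shRNA1 and 9.58 to 12.9 for luciferase shRNA. The brightest probe set of the targeted gene, Kdm7a, averaged 31.6 ± 9.64 with KIAA1718 shRNA1 and 38.0 ± 1.11 with luciferase shRNA (SD, n = 3). Its difference was -0.20 with a 95% interval of -0.54 to 0.14 (limma adjusted p = 0.534). Dimmer tested Kdm7a probe sets differed by -0.22, with groups that did not overlap, and by -0.16 (limma adjusted p = 0.458 and 0.585). None passed, so these arrays do not show the knockdown itself. All 12 embryonic stem cell markers listed were detected above the filter, with summed signals of 12291 to 13218 on KIAA1718 shRNA1 arrays and 14263 to 14559 on luciferase arrays.

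Promoter sequences from RefSeq (GRCm38.p6, 250 bases before to 50 after the annotated start) were found for 23 of the 34 genes. They are shown for the collagen IV pair, whose genes lie head to head, and for Dab2 and Rhox5, which are past the threshold in opposite directions. Capitals mark matches, on either strand, to the GATA factor motif AGATAA, the GC box motif GGGCGG and the CCAAT box. The SOX factor motif ACAATG was also searched, as was the TATA box motif TATAAA, and neither matches in these 4 windows.
Col4a1, chr8:11312777-11313076, minus strand: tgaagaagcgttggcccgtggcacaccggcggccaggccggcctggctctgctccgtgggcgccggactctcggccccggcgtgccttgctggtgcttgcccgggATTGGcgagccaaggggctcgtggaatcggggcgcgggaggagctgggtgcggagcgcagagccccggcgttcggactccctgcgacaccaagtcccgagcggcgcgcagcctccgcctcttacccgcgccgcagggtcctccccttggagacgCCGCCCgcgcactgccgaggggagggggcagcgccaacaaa
Col4a2, chr8:11312555-11312854, plus strand: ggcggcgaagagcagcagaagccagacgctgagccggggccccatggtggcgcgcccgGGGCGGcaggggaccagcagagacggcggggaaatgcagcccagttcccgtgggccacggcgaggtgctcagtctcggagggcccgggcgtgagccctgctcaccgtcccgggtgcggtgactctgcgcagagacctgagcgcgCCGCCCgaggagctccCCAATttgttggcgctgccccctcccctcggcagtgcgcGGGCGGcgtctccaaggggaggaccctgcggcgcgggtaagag
Dab2, chr15:6299539-6299838, plus strand: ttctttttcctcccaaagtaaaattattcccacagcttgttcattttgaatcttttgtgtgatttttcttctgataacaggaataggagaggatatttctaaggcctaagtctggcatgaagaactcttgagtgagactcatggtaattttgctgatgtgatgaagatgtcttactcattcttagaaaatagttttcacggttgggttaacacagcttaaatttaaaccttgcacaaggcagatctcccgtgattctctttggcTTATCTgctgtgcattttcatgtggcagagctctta
Rhox5, chrX:37754358-37754657, plus strand: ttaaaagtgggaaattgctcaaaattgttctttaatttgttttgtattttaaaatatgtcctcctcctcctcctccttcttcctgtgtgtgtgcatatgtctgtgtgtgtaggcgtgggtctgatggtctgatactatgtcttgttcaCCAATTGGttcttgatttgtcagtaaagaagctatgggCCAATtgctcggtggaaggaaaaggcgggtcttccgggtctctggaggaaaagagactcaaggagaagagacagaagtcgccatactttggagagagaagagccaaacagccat
The annotated starts of Col4a1 and Col4a2 lie 21 bases apart on opposite strands, so their windows share 78 bases. The Dab2 window, 1 of 2 annotated for the gene, holds AGATAA on the minus strand 15 bases into the transcript. AGATAA was present in 3 of 32 windows of the set (Dab2, Foxa2 and Hnf4a), against 11.2% of 32851 windows of all genes, and ACAATG in 1 (Apoe), against 12.6%. GGGCGG was present in 16 windows, against 35.7% of all. CCAAT was present in 11 windows, against 37.4%, and TATAAA in 6, against 13.6%. The Rhox5 window holds CCAAT at 3 positions, of which a pair on opposite strands overlap.

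Of the 30 tested genes 6 were lower with KIAA1718 shRNA1 (Srgn, Sox7, Lamc1, Pdgfra, Dab2 and Lama1), 1 was higher (Rhox5) and 23 did not pass. Over all tested genes 4.8% passed, 2.17% as lower and 2.64% as higher. In RNA pooled from many sorted cells, fewer cells of a type and less RNA per cell cannot be told apart. The median difference of the 30 genes was -0.20, with 22 below 0 and 8 above, against a median of 8.14e-05 over all tested genes. With the replicate number as a block 7 were lower and 1 higher, against 7.89% of all tested genes in either direction, 3.83% lower and 4.06% higher, and the count of all genes past the threshold was 1005 in place of 612. The count of lower genes depended on single arrays. It was 1 without luciferase replicate 3 and 4 without KIAA1718 shRNA1 replicate 1. Without luciferase replicate 2 or KIAA1718 shRNA1 replicate 2 or 3 it was 3. Without luciferase replicate 1, with KIAA1718 shRNA1 replicate 1 kept, it was 9.

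**Figure D1:**
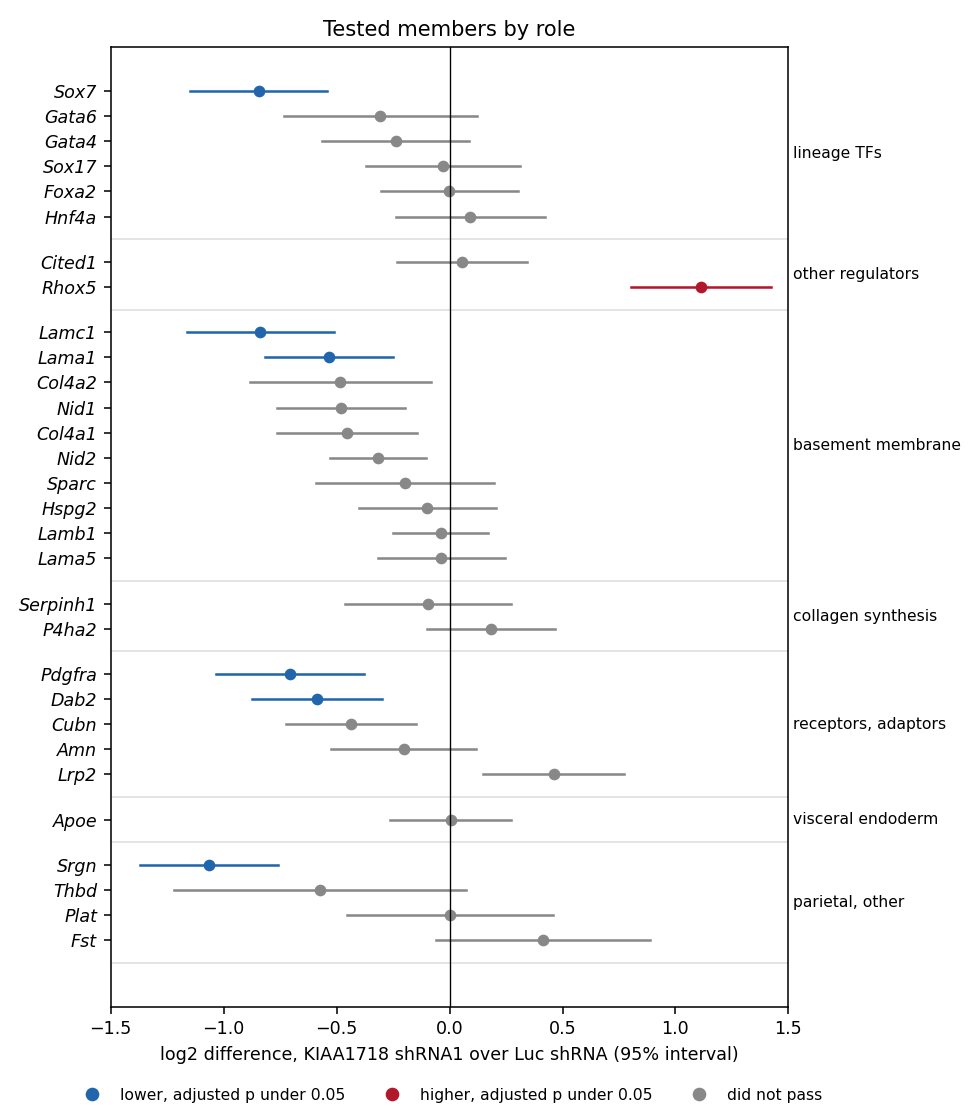
Log2 difference of each tested gene (KIAA1718 shRNA1 over luciferase shRNA, points) with its 95% interval (lines), by role and, within a role, from lowest to highest. All 10 basement membrane genes lie below 0, from -0.84 for Lamc1 to -0.04 for Lama5, while 4 of the 6 lineage transcription factors (TFs) lie between -0.31 and 0 and Hnf4a lies at 0.09.

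Among the lineage transcription factors, Sox7 fell and the other 5 did not pass. Sox7, a SOX family factor of the early endoderm, had signals of 10.6, 13.5 and 13.8 with KIAA1718 shRNA1, against 30.0, 33.5 and 43.4 with luciferase shRNA. The groups did not overlap, and the difference was -0.84 ± 0.14 (SE; limma adjusted p = 0.00835). It missed the threshold without luciferase replicate 3, at -0.73 (limma adjusted p = 0.0514), and its second probe set was too dim to be tested. Sox17, its close relative and also a SOX factor of endoderm, had 19.6, 20.8 and 13.2 with KIAA1718 shRNA1, against 16.2, 25.4 and 14.6 with luciferase shRNA. These groups overlapped on the probe set used (-0.03, limma adjusted p = 0.944). Its dimmer probe set averaged 7.58 ± 2.495 with KIAA1718 shRNA1 and 18.2 ± 8.67 with luciferase shRNA (SD, n = 3). Groups did not overlap on that probe set, and it did not pass (-0.51, limma adjusted p = 0.152), so the probe sets of Sox17 disagree.

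The GATA factors that specify primitive endoderm were dim but above the filter, and neither passed. Gata6 had 10.8, 9.22 and 25.9 with KIAA1718 shRNA1, against 28.4, 17.0 and 20.6 with luciferase shRNA. Gata4 had 8.88, 9.32 and 7.32 with KIAA1718 shRNA1, against 12.3, 18.6 and 8.66 with luciferase shRNA. Both genes overlapped between groups, Gata6 through its replicate 3 with KIAA1718 shRNA1, and their differences were -0.31 with a 95% interval of -0.73 to 0.12 (limma adjusted p = 0.440) and -0.24 with an interval of -0.56 to 0.09 (limma adjusted p = 0.428). The forkhead factor gene Foxa2 averaged 11.4 ± 2.58 with KIAA1718 shRNA1 and 11.4 ± 2.70 with luciferase shRNA (SD, n = 3), and Hnf4a, a nuclear receptor gene of visceral endoderm and liver, 11.1 ± 3.36 with KIAA1718 shRNA1 and 9.43 ± 3.62 with luciferase shRNA. Neither passed (limma adjusted p = 0.999 and 0.798). The median difference of the 6 factors was -0.13.

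Rhox5, an X-linked homeobox gene expressed in extraembryonic tissue and testis, was the single gene of the set that rose. Its signals were 291.6, 290.6 and 247.7 with KIAA1718 shRNA1, against 151.0, 105.8 and 104.7 with luciferase shRNA. The groups were clearly apart, and the difference of 1.11 ± 0.14 (SE; limma adjusted p = 0.00200), a 2.16-fold increase, ranked 27 from the top among all tested genes. It was past the threshold in all 17 alternatives. Cited1, a transcriptional co-activator gene, stayed between 5.11 and 9.22 on every array and did not pass (0.06, limma adjusted p = 0.865).

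**Figure D2:**
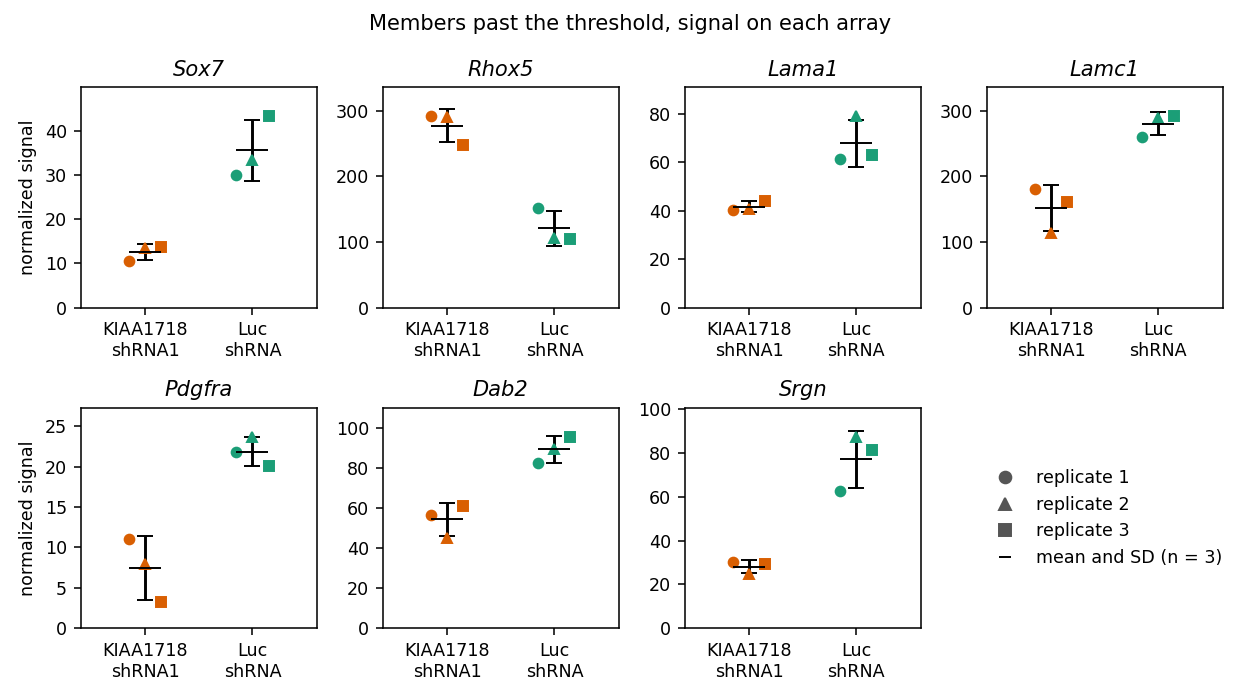
Normalized signal (arbitrary units, axes starting at 0) of the 7 genes past the threshold on each array, with KIAA1718 shRNA1 at the left and luciferase shRNA at the right of every panel; bars give mean and SD (n = 3). No panel shows overlapping groups, and Rhox5 is higher with KIAA1718 shRNA1 while the other 6 are lower.

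The basement membrane genes of the set leaned downwards with KIAA1718 shRNA1, but few passed. Of 10 tested, 2 fell, none rose and 8 did not pass, with a median of -0.39 and all 10 differences below 0. Over all tested genes 2.17% were lower. Of 16 tested further basement membrane genes, described below, 8 were below 0 and 8 above, with a median of -0.02, and of 32 fibroblast markers 31 were below 0. The laminin chains were uneven on the probe sets used, but the probe sets of Lamc1 and of Lamb1 also differed among themselves. Lamc1, the gamma chain shared by most laminins, had 181.2, 113.6 and 161.5 with KIAA1718 shRNA1, against 260.0, 288.7 and 292.1 with luciferase shRNA. Its groups did not overlap, and the difference was -0.84 ± 0.15 (SE; limma adjusted p = 0.0119), a fall of 44.1% on this scale. It missed the threshold without luciferase replicate 3 (-0.81, limma adjusted p = 0.0739), and a dimmer probe set differed by -0.14 (limma adjusted p = 0.831).

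Lama1, the alpha chain of the first laminin of the embryo, had 40.1, 40.5 and 44.1 with KIAA1718 shRNA1, against 61.4, 79.0 and 63.0 with luciferase shRNA. The groups did not overlap, yet the call was marginal, at -0.53 ± 0.13 (SE; limma adjusted p = 0.0453). It was lost whichever array was left out, with adjusted p-values of 0.0562 to 0.134. Lamb1, the beta chain that completes the same trimer, had 428.9, 459.3 and 400.6 with KIAA1718 shRNA1, against 420.7, 482.2 and 424.2 with luciferase shRNA, and these overlapped (-0.04, 95% interval -0.25 to 0.17, limma adjusted p = 0.870). A dimmer Lamb1 probe set averaged 110.4 ± 5.15 with KIAA1718 shRNA1 and 162.0 ± 21.5 with luciferase shRNA (SD, n = 3) and lay just outside the threshold (-0.49, limma adjusted p = 0.0516, and 0.0380 with the replicate number as a block), while a still dimmer one differed by -0.06 (limma adjusted p = 0.895), so the probe sets of Lamb1 disagree. The log2 difference between Lamc1 and Lamb1 on the same array, from the probe sets used, was -1.43 ± 0.39 with KIAA1718 shRNA1 and -0.63 ± 0.10 with luciferase shRNA (SD, n = 3), with every KIAA1718 shRNA1 array lower. Lama5, an alpha chain of later basement membranes, averaged 78.8 ± 8.81 with KIAA1718 shRNA1 and 81.2 ± 8.55 with luciferase shRNA (SD, n = 3) and did not pass (-0.04, limma adjusted p = 0.918).

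The nidogens, which link the laminin and collagen networks, were both lower on every KIAA1718 shRNA1 array without passing. Nid1 had 271.6, 292.8 and 321.2 with KIAA1718 shRNA1, against 339.7, 443.7 and 483.1 with luciferase shRNA. Its difference was -0.48 (limma adjusted p = 0.0659), and it was past the threshold with the replicate number as a block (limma adjusted p = 0.0172). Nid2 had 297.7, 283.0 and 316.4 with KIAA1718 shRNA1, against 373.8, 357.3 and 398.4 with luciferase shRNA, a difference of -0.32 (limma adjusted p = 0.0973). In all, 4 of the 10 basement membrane genes had groups apart with KIAA1718 shRNA1 lower, against 13.4% of all tested genes. Hspg2, which encodes perlecan, averaged 81.3 ± 13.7 with KIAA1718 shRNA1 and 87.9 ± 9.74 with luciferase shRNA (SD, n = 3), a difference of -0.10 (limma adjusted p = 0.760). Its dimmer probe set, with groups that did not overlap, differed by -0.71 (limma adjusted p = 0.0537, and 0.0321 with the replicate number as a block).

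The collagen IV genes of the head-to-head pair printed above had like differences, and both depended on luciferase replicate 1. Col4a1 had 408.3, 332.3 and 374.5 with KIAA1718 shRNA1, against 401.8, 610.1 and 550.7 with luciferase shRNA. Col4a2 had 153.2, 156.6 and 161.8 with KIAA1718 shRNA1, against 153.0, 277.7 and 269.7 with luciferase shRNA. For both genes luciferase replicate 1 lay within or at the edge of the KIAA1718 shRNA1 range and the other luciferase arrays above it, so the groups overlapped. The differences were -0.45 for Col4a1 (limma adjusted p = 0.105) and -0.48 for Col4a2 (limma adjusted p = 0.177). Without luciferase replicate 1, with KIAA1718 shRNA1 replicate 1 kept, they were -0.62 and -0.74 (limma adjusted p = 0.0205 and 0.0100). Without luciferase replicate 2 they were -0.33 and -0.345 (limma adjusted p = 0.273 and 0.399). A dimmer Col4a1 probe set differed by -0.69 (limma adjusted p = 0.154). Sparc, a matrix protein that binds collagen IV and is abundant in parietal endoderm, had 747.7, 770.1 and 844.2 with KIAA1718 shRNA1, against 620.1, 1195 and 994.8 with luciferase shRNA. Luciferase replicate 1 was below every KIAA1718 shRNA1 array here, and the difference was -0.20 (limma adjusted p = 0.610). Without luciferase replicate 1, with KIAA1718 shRNA1 replicate 1 kept, it was -0.46 (limma adjusted p = 0.0424). Without luciferase replicate 2 it was 0.0010.

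The collagen-processing genes of the set did not pass. Serpinh1, a chaperone of procollagen in the endoplasmic reticulum, averaged 291.3 ± 39.9 with KIAA1718 shRNA1 and 317.7 ± 84.4 with luciferase shRNA (SD, n = 3; -0.10, limma adjusted p = 0.816). P4ha2, a catalytic subunit of collagen prolyl 4-hydroxylase, averaged 39.7 ± 4.39 with KIAA1718 shRNA1 and 33.1 ± 4.14 with luciferase shRNA (0.18, limma adjusted p = 0.498).

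**Figure D3:**
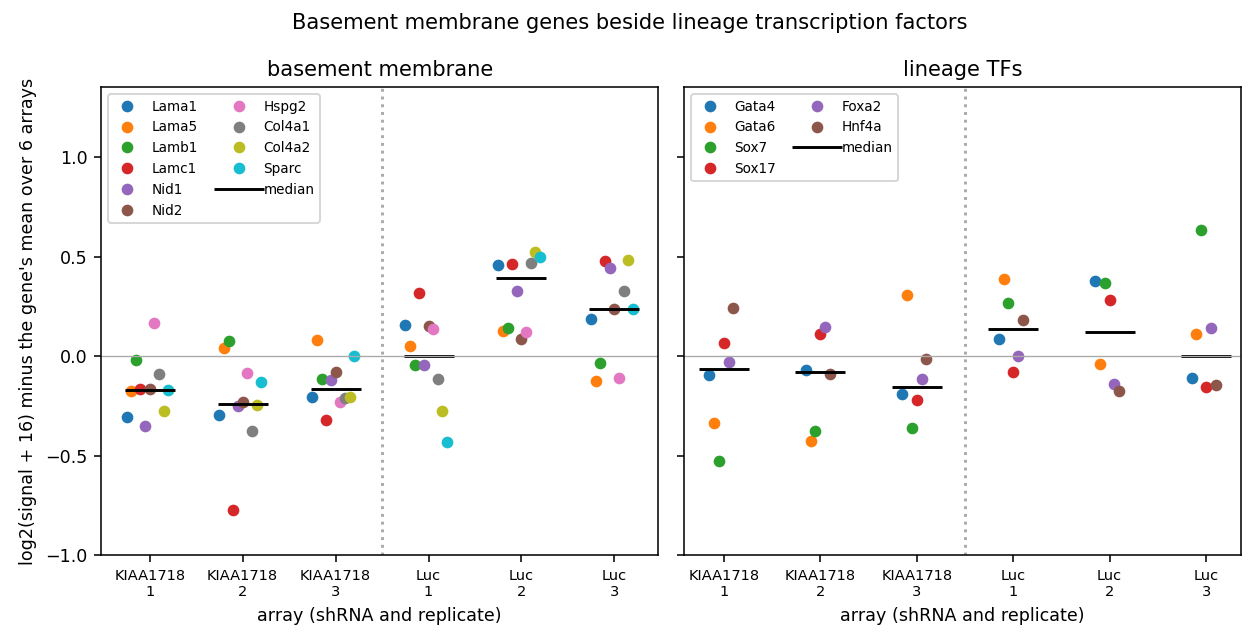
Log2(signal + 16) of each gene minus its mean over the 6 arrays, for the 10 basement membrane genes (left) and the 6 lineage transcription factors (TFs, right), by array, with KIAA1718 shRNA1 arrays left of the dotted line and luciferase arrays right of it; black bars are medians. The basement membrane medians are -0.17, -0.24 and -0.16 on the KIAA1718 shRNA1 arrays and 0.0029, 0.39 and 0.24 on the luciferase arrays, where replicate 1 is lowest.

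Beside each other, the basement membrane genes had 2 of 10 lower and the lineage factors 1 of 6, against 2.17% of all tested genes. Their medians were -0.39 and -0.13, and the difference between these groups was not tested. The summed signal of the basement membrane genes was 2609 to 2779 on KIAA1718 shRNA1 arrays and 2808 to 3915 on luciferase arrays, and that of the lineage factors 75.6 to 79.2 on KIAA1718 shRNA1 arrays and 109.0 to 111.8 on luciferase arrays. In the lineage factor sum Sox7 averaged 12.6 ± 1.77 with KIAA1718 shRNA1 and 35.6 ± 6.91 with luciferase shRNA (SD, n = 3).

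Among the receptors and adaptors, Pdgfra and Dab2 fell. Pdgfra, the PDGF receptor that marks primitive endoderm from the blastocyst on, had 11.1, 7.97 and 3.22 with KIAA1718 shRNA1, against 21.8, 23.7 and 20.1 with luciferase shRNA. Pdgfra was dim, like the GATA factors. The filter on low signals uses the mean over both groups, which averaged 7.41 with KIAA1718 shRNA1 and 21.9 with luciferase shRNA. How far the KIAA1718 shRNA1 signals lie above background is unknown. The groups did not overlap, and the difference was -0.71 ± 0.15 (SE; limma adjusted p = 0.0263). Its 2 dimmer probe sets differed by -0.33 and -0.22 and did not pass (limma adjusted p = 0.230 and 0.572), and the call was kept in 1 of 6 fits that left out an array, the one without KIAA1718 shRNA1 replicate 1 (adjusted p-values of the others 0.0517 to 0.105). Dab2, an endocytic adaptor required in visceral endoderm, had 56.7, 45.3 and 61.4 with KIAA1718 shRNA1, against 82.5, 89.9 and 95.8 with luciferase shRNA. These groups did not overlap either (-0.59 ± 0.13 SE, limma adjusted p = 0.0343), its 2 dimmer tested probe sets gave -0.33 and -0.28, and the call was kept only without luciferase replicate 1 (adjusted p-values of the other 5 fits 0.0658 to 0.144).

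The endocytic receptors that Dab2 serves did not pass on the probe sets used. Cubn, which encodes cubilin, had 19.1, 23.5 and 19.6 with KIAA1718 shRNA1, against 38.1, 34.4 and 28.9 with luciferase shRNA, and was below the luciferase range on every KIAA1718 shRNA1 array (-0.44, limma adjusted p = 0.0942). Lrp2, which encodes megalin, the partner of cubilin in uptake, was above it, with 65.2, 43.5 and 58.0 with KIAA1718 shRNA1 against 38.8, 34.6 and 33.5 with luciferase shRNA (0.46, limma adjusted p = 0.104). A second Lrp2 probe set, slightly dimmer, averaged 51.8 ± 0.092 with KIAA1718 shRNA1 and 32.4 ± 1.67 with luciferase shRNA (SD, n = 3) and passed (0.49, limma adjusted p = 0.0454). Amn, the membrane anchor of cubilin, averaged 14.4 ± 1.38 with KIAA1718 shRNA1 and 19.3 ± 5.82 with luciferase shRNA, overlapping (-0.20, limma adjusted p = 0.505).

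Of the genes of differentiated visceral endoderm 4 were below the filter on low signals. Afp lay between 0.577 and 4.17 on KIAA1718 shRNA1 arrays and between 0.295 and 2.5 on luciferase arrays, and Ttr between 0.964 and 5.0 on KIAA1718 shRNA1 arrays and between 0.541 and 4.37 on luciferase arrays; both encode carrier proteins of the yolk sac and liver. Apoa1, an apolipoprotein gene, did not exceed 0.982 on any array, and the hedgehog ligand gene Ihh did not exceed 4.93 on KIAA1718 shRNA1 arrays or 7.31 on luciferase arrays. None of the 4 was tested, and with no filter none passed (limma adjusted p of 0.746 or higher). Apoe, an apolipoprotein gene that many cell types express, was bright, with 303.1, 349.3 and 258.9 with KIAA1718 shRNA1 against 329.0, 299.9 and 274.5 with luciferase shRNA, and did not differ beyond the spread (0.0058, 95% interval -0.26 to 0.27, limma adjusted p = 0.989).

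Of the remaining surface and secreted proteins, Srgn fell furthest. Srgn, which encodes serglycin, a proteoglycan of secretory granules that parietal endoderm also makes, had 30.3, 24.8 and 29.4 with KIAA1718 shRNA1, against 62.4, 87.4 and 81.1 with luciferase shRNA. The groups were far apart, the difference of -1.07 ± 0.14 (SE; limma adjusted p = 0.00231) ranked 17 from the bottom among all tested genes, and it was past the threshold in all 17 alternatives. Thbd, which encodes the anticoagulant receptor thrombomodulin of parietal endoderm and endothelium, had 31.0, 46.9 and 49.5 with KIAA1718 shRNA1, against 30.9, 96.4 and 104.6 with luciferase shRNA. Replicate 1 was low in both groups, and the groups overlapped (-0.57, limma adjusted p = 0.329). Without luciferase replicate 1 the difference was -1.01 (limma adjusted p = 0.0108), but that fit kept the low KIAA1718 shRNA1 replicate 1. Between the arrays of replicate 1 Thbd differed by 0.0014, and the smallest fall without 1 array was -0.33. Fst, which encodes the activin antagonist follistatin, had 92.2, 166.1 and 146.5 with KIAA1718 shRNA1, against 65.0, 112.6 and 113.9 with luciferase shRNA (0.41, limma adjusted p = 0.337). Its dimmer probe set differed by 0.53 (limma adjusted p = 0.181, and 0.0312 with the replicate number as a block). Plat, tissue plasminogen activator, averaged 17.99 ± 2.23 with KIAA1718 shRNA1 and 19.3 ± 12.2 with luciferase shRNA (SD, n = 3; 0.0019, limma adjusted p = 0.998).

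Several genes of the set are also made by fibroblasts, the usual feeder cells of such cultures. The labels name no feeders, and whether any fibroblasts were left after the sort for GFP was not tested. Fibroblast markers varied between the arrays. Of 34 listed markers 32 were measured, 31 of them with a difference below 0. None passed, and 8 of the 32 had an unadjusted limma p under 0.05, against 2802 of all 12741 tested genes. With the replicate number as a block 13 were lower, against 3.83% of all tested genes. The summed signal of the 32 markers was 11855 to 15168 on KIAA1718 shRNA1 arrays and 11986 to 20154 on luciferase arrays. None of the defining collagen genes was at 0. Col1a1 was at 105.4, 49.7 and 169.7 on KIAA1718 shRNA1 arrays and 139.2, 472.6 and 458.9 on luciferase arrays. Between arrays of equal number the marker mean differed by -0.10, -0.56 and -0.50 for replicates 1, 2 and 3. In replicate 1, where that difference was smallest, Col4a1, Col4a2 and Thbd differed by 0.02, 0.0015 and 0.0014 and Sparc by 0.26. Srgn differed by -0.76, Sox7 by -0.79, Lamc1 by -0.49, Pdgfra by -0.48, Lama1 by -0.46 and Dab2 by -0.44. These values rest on 1 array a group, and equal numbers were taken as pairs on these data alone. Whether fibroblasts account for any of these differences was not tested. The marker mean averaged 7.58 with KIAA1718 shRNA1 and 7.97 with luciferase shRNA (log2 scale), so as a covariate it overlaps with the shRNA. With this covariate Srgn was the single gene of the set past the threshold as lower, at -0.93 (limma adjusted p = 0.0172). The other 5 lower genes were below 0 without passing. Lamc1 was at -0.84, Pdgfra at -0.77 and Sox7 at -0.72 (limma adjusted p = 0.0537, 0.0671 and 0.0543). Dab2 was at -0.53 and Lama1 at -0.45 (limma adjusted p = 0.151 and 0.200). Rhox5 and Fst were higher, Fst at 0.82 (limma adjusted p = 0.0383), and over all genes 204 passed.

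**Figure D4:**
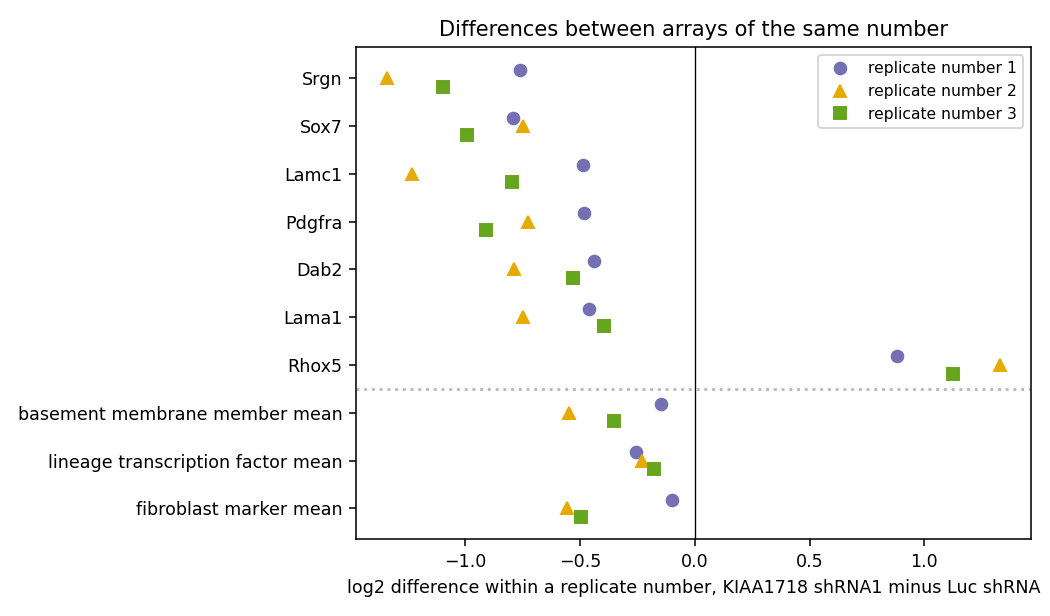
Log2 difference between the KIAA1718 shRNA1 array and the luciferase array of the same replicate number, for the 7 genes past the threshold and, below the dotted line, for the mean of the basement membrane genes, of the lineage transcription factors and of the fibroblast markers. The basement membrane mean differs by -0.15, -0.55 and -0.35 in replicates 1, 2 and 3, the fibroblast mean by -0.10, -0.56 and -0.50, and the lineage factor mean by -0.25, -0.23 and -0.18.

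Over all tested genes 2.17% were lower and 2.64% higher, and 3.83% and 4.06% with the replicate number as a block. Of the embryonic stem cell markers 3 of 12 fell. Esrrb, a nuclear receptor gene of pluripotent cells, fell by 1.16 (limma adjusted p = 0.00405) and Utf1 by 0.44 (limma adjusted p = 0.0244). Fgf4 is described below. With the replicate number as a block Nanog was lower too (-0.42, limma adjusted p = 0.0490, against 0.159 without it). Of 7 tested trophectoderm markers none passed, and 0 had an unadjusted limma p under 0.05, against 2802 of all 12741 tested genes. Krt8 and Krt18, keratin genes of simple epithelia that rose, were not on this list and are given below with endoderm genes. The trophectoderm list summed to 313.6 to 382.8 on KIAA1718 shRNA1 arrays and 304.6 to 348.9 on luciferase arrays. Gata3 did not exceed 0.452 on KIAA1718 shRNA1 arrays or 0.706 on luciferase arrays. Of 6 tested definitive endoderm markers Trh, which is also expressed outside endoderm, rose by 1.00 (limma adjusted p = 0.00203), while the defining genes Gsc, Cer1 and Cxcr4 were below the filter. With the block Kitl and Cldn6 were higher too, both by 0.51 (limma adjusted p = 0.0458 and 0.0290, against 0.0662 and 0.0694 without it). Summed signals of the definitive endoderm list, most of them from Trh (647.9, 803.1 and 954.2 with KIAA1718 shRNA1, against 426.9, 364.0 and 372.0 with luciferase shRNA), were 879.6 to 1171 on KIAA1718 shRNA1 arrays and 497.7 to 594.4 on luciferase arrays. Of 7 tested endothelial and blood markers the receptor gene Tek rose by 0.76 (limma adjusted p = 0.00958), and the list summed to 141.3 to 147.1 on KIAA1718 shRNA1 arrays and 73.2 to 120.4 on luciferase arrays. The part of fibroblasts or of these other cells in the results was not tested.

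Genes of the same pathways outside the set were also counted, beside 2.17% lower and 2.64% higher over all tested genes. With the replicate number as a block these shares were 3.83% and 4.06%. Of 16 tested further basement membrane genes none passed, with a median of -0.02. An unadjusted limma p under 0.05 was found for 5 of them, against 2802 of all 12741 tested genes. With the replicate number as a block Frem2 was higher and Col4a5 lower. Of 17 tested basement membrane receptor genes, 2 fell and 1 rose, with a median of -0.09. The integrin gene Itga5, whose product binds fibronectin, had 35.3, 33.3 and 32.1 with KIAA1718 shRNA1, against 47.2, 90.9 and 63.9 with luciferase shRNA (-0.72, limma adjusted p = 0.0462). Fermt2, which encodes the integrin activator kindlin-2, fell by 0.56 (limma adjusted p = 0.00597), and Ddr1, a collagen receptor gene, rose by 0.82 (limma adjusted p = 0.0123). The laminin-binding integrin gene Itga6 lay just outside the threshold at -0.37 (limma adjusted p = 0.0540, and 0.0445 with the replicate number as a block).

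Of 17 tested genes for collagen folding, modification and secretion, P4hb rose and none fell, with a median of -0.13. With the replicate number as a block 2 were lower, the lysyl oxidase family genes Loxl1, also on the fibroblast list, and Lox (limma adjusted p = 0.00454 and 0.0371, against 0.106 and 0.428 without the block). P4hb, the beta subunit of prolyl 4-hydroxylase and a disulfide isomerase, had 1974, 1846 and 1839 with KIAA1718 shRNA1, against 1352, 1357 and 1494 with luciferase shRNA (0.43, limma adjusted p = 0.00657). Of 28 tested further genes of primitive, visceral and parietal endoderm, 4 rose and 1 fell, with a median of 0.11. Over all tested genes 2.64% were higher and 2.17% lower. Fgf4, the growth factor gene that drives primitive endoderm specification and is itself made by pluripotent cells, had 206.0, 190.2 and 192.7 with KIAA1718 shRNA1, against 314.5, 332.5 and 355.6 with luciferase shRNA (-0.72, limma adjusted p = 0.00331). The keratin genes Krt8 and Krt18 of simple epithelia rose by 1.28 and 1.02, Emb by 0.79 and Fmr1nb by 0.75 (limma adjusted p of 0.0167 or lower). With the replicate number as a block Lefty1, a gene of an inhibitor of Nodal signalling, was higher too (0.24, limma adjusted p = 0.0457, against 0.0783 without it).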

How the data were processed

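For 45101 probe sets on 6 arrays the authors deposited linear intensity values. GCOS is named, per the submitters' processing notes; version and scaling: not given in the sources used here. The values are linear and the arrays differ in scale, so log2(intensity + 16) was quantile-normalized between arrays after removing 64 control probe sets. Dim probe sets (the lowest 40% by mean) were dropped, which kept 27022. limma 3.58.1 in R 4.3.3 (lmFit, eBayes with an intensity trend, two-sided, Benjamini-Hochberg) compared 3 KIAA1718 shRNA1 with 3 luciferase arrays. Printed signals are normalized values with the pseudocount removed. The number of arrays limits the precision. Symbols (34945 probe sets with 1, 932 with several, 9160 unnamed here) were updated through a RefSeq table of GRCm38.p6. Every gene of the set is named, with Kdm7a and, of each further list, genes past the threshold; Itga6, Col1a1, genes past it only with the block and the markers near 0 were named after their values were seen. Members and lists were chosen with earlier results of these data known. Deviations from group means correlated at 0.203, 0.125 and 0.132 between arrays of equal number, against -0.150 to 0.0234 otherwise. Deviations cancel within each group, so positive values at equal numbers lower the others, and this contrast is partly built in. On these data alone the numbers were taken as pairs in the alternative with a block. The main fit is unpaired, and printed p-values ignore the pairing unless the block is named. No arrays were copies of each other: any pair differed in at least 45036 of the 45037 probe sets.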

Additional observations from a re-analysis of the deposited data

How the results depend on the processing

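With 3 arrays a group, Rhox5 and Srgn were past the threshold in all 17 alternatives; the other 5 changed genes were not. Among single-gene results 441 kept direction and side of the threshold, 37 lost the call, 7 gained it and 33 changed sign. Causes were not tested. No detection calls were used, so how far dim signals lie above background is unknown. The count of all changed genes was 612, and 364 on unscaled deposited intensities (where the median of all genes was 0.11), 197 with no filter, 394 with no intensity trend, 1005 with the replicate number as a block (the arrays taken as pairs), 204 with the fibroblast marker mean as a covariate, and 161 to 523 without 1 array. On the brightest probe set of each gene, the block changed no call among the 30 genes except that of Nid1. Lower genes of the set numbered 3 unscaled, 1 with no filter, 3 with the mean of all probe sets of a gene, 1 with the covariate, and 1 to 9 without 1 array; higher genes numbered 2 with the covariate and 1 to 1 without 1 array. Lower basement membrane genes numbered 0 unscaled, with no filter or with the covariate, 1 with trimmed mean scaling, the lowest 20% left out, no trend or the probe set mean, and 0 to 5 without 1 array (with the covariate Lamc1 was at -0.84 and Lama1 at -0.45); lower lineage factors numbered 0 with no filter or the covariate, and 0 to 1 without 1 array. The basement membrane median was -0.24 with the covariate and -0.53 to -0.32 without 1 array. The lineage factor median was -0.045 unscaled, -0.23 with pseudocount 4, -0.051 with pseudocount 64, -0.84 with the lowest 60% left out (only Sox7 then tested), -0.25 with the probe set mean, and -0.22 to -0.071 without 1 array. Signs turned unscaled for Sox17 (0.068), Foxa2 (0.0625), Lama5 (0.079), Lamb1 (0.10), Hspg2 (0.018) and Serpinh1 (0.046); with trimmed mean scaling for Foxa2 (0.016); with the probe set mean for Hnf4a (-0.0325); with pseudocount 64 for Plat (-0.0125); and with the covariate for Sox17 (0.0051), Foxa2 (0.0013), Hnf4a (-0.11), Sparc (0.16), Serpinh1 (0.15), Apoe (-0.082) and Thbd (0.065). Without 1 array the ranges that crossed 0 were -0.11 to 0.10 for Sox17, -0.074 to 0.069 for Foxa2, -0.0062 to 0.21 for Hnf4a, -0.11 to 0.043 for Lama5, -0.088 to 0.0215 for Lamb1, -0.46 to 0.001 for Sparc, -0.28 to 0.087 for Serpinh1, -0.10 to 0.11 for Apoe and -0.24 to 0.26 for Plat.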
